A study of Homo sapiens with 12 samples.

Results

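The regions described here are the eCLIP peaks of dSpCas9 that lie in the part of 3′ UTRs next to the stop codon. A peak was counted when its midpoint lay, on the same strand, in the 3′ UTR of the canonical transcript of a protein-coding gene, when it did not overlap the stop codon, and when its midpoint came before the midpoint of that 3′ UTR, counted in spliced bases from the stop codon. These peaks are called stop-proximal, and those beyond the midpoint of the 3′ UTR are called distal. Of the 18128 peaks in the 4 deposited lists, 3877 were stop-proximal, and they lay in 1292 genes. The rule used position alone and no enrichment value.

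eCLIP cross-links proteins to RNA with UV light in living cells, recovers a protein by immunoprecipitation (IP) and sequences the RNA bound to it. The protein was dSpCas9, a Cas9 of Streptococcus pyogenes without nuclease activity, expressed without a guide RNA and without a nuclear localization signal in HEK 293T, a human embryonic kidney cell line. The 12 libraries formed 6 groups of 2 replicates. For the V5 antibody there were IP and size-matched input libraries of cells transfected with V5-dSpCas9 and IP libraries of cells transfected with the empty vector, and for the FLAG antibody the same groups with 3xFLAG-dSpCas9. All cells, those with the empty vector included, were UV cross-linked in 2 exposures of 400 mJ/cm2, and RNA was taken from the membrane above 115 kDa. The protein came from transfected plasmids, so its level was that of transient overexpression, and the empty vector cells carried neither a tag nor dSpCas9. Size-matched input is the RNA recovered at the same position of the membrane when no IP is made.

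A 3′ UTR is the untranslated stretch of an mRNA between the stop codon and the poly(A) tail. It holds most of the known sites for microRNAs and for RNA-binding proteins that set the stability, translation and location of the mRNA, and ribosomes do not normally travel along it. Cas9 holds its guide RNA through the repeat-derived stem and loops of that guide, and the study modelled its contacts with human RNA as a GU in a loop followed by a stem of 5 bases (GU-loop:5nt-stem).

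Each list compared the IP libraries of an antibody with 1 control and had a single value per peak over both replicates, the log2 of the geometric mean ratio of IP reads to control reads (log2 enrichment). No peak lay under a log2 enrichment of 3.00. The spread between replicates and the read depth are therefore unknown, no p-value was computed, and all differences below are descriptions. The comparisons with the size-matched input are called V5 or FLAG over input, and those with the empty vector IP are called V5 or FLAG over empty vector. The pair of lists of an antibody shares its IP libraries. The lists hold no expression level, so that the part of mRNA abundance in any value was not tested, and the identity of the cells could not be checked against marker genes.

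Short stretches of stop-proximal sites present in all 4 lists are shown first, so that the GU-loop:5nt-stem can be read in them directly. They come from the 15 genes with the highest mean enrichment over input, MFHAS1 excepted, and from CDKN1A. Where a gene had an interval with the motif, that interval is shown, so that the motif is more common among these stretches than among the sites as a whole. In MACROH2A2, ATF3, POLG, HDLBP and SUV39H1 another interval, without the motif, had a higher mean over input than the one shown. Each is at most 30 bases of the hg38 reference in mRNA sense, written as DNA. Capitals mark the called GT with the 5 stem bases that follow it, and a sequence without capitals comes from an interval in which no such motif was called.
MACROH2A2: tggccgggcagGTCCTGCcggcgcagggag
ATF3: ccccagagtggGTCTTGGaccagggcaagt
POLG: tatttgctcccGTGGAGCttcatcggggtg
HDLBP: tggagctggggGTGGGCGccgtgtacctaa
SUV39H1: cagccctggagGTAGGCTgggaccaagctc
HACD3: cagttcttacaGTTGAGAtttgttcttttc
CDKN1A: ggttgggcaggGTGACCCtgaagtgagcac
ZNF496: gtggaagcgtcacccagtctctgccttcat
RMND5A: ccgtgctgtgcggcttcaccagcggttggg
ACTR1A: ctgctggttccaggacctcgctttccatct
UNC119B: catctcctggctcctcccttctgagtctca
FGF11: ctctggatctgtcaggcctctgtcattgac
FLYWCH1: tctctggccgcctgctgccagggtgtggcc
PXN: tggaacccttgtcc
IRAK1: gcagggc
On the plus strand lie the stretches of MACROH2A2 (chr10:70111787-70111816), ATF3 (chr1:212619725-212619754), SUV39H1 (chrX:48708272-48708301), HACD3 (chr15:65576718-65576747), CDKN1A (chr6:36686336-36686365), RMND5A (chr2:86775024-86775053), UNC119B (chr12:120720753-120720782), FGF11 (chr17:7443699-7443728) and FLYWCH1 (chr16:2949249-2949278). On the minus strand lie those of POLG (chr15:89316703-89316732), HDLBP (chr2:241228569-241228598), ZNF496 (chr1:247299331-247299360), ACTR1A (chr10:102480123-102480152), PXN (chr12:120212196-120212209) and IRAK1 (chrX:154011510-154011516). The stretches of PXN and IRAK1 are whole intervals of 14 and 7 nt. Those of ATF3 and HDLBP run past the 3′ end of their interval, so that their last bases lie outside it. All are 3′ UTR exon sequence of the canonical transcript. The probability that the U of the motif was paired was 0.671 in MACROH2A2, 0.646 in ATF3 and 0.344 in HDLBP, where the model allows values under 0.7. The least paired of the 5 stem bases had a probability of 0.669, 0.681 and 0.519 in the same genes, where the model requires more than 0.5.

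The stop-proximal peaks numbered 1437 in 913 genes for V5 over input, 464 in 311 genes for V5 over empty vector, 1485 in 936 genes for FLAG over input and 491 in 344 genes for FLAG over empty vector. They made up 21.8%, 15.4%, 22.7% and 25.0% of these lists. In V5 over input 615 of the 913 genes (67.4%) had 1 such peak and 17 had 5 or more, and in FLAG over input these numbers were 625 and 26 of 936. AEN, which encodes an apoptosis-enhancing exonuclease, had the most stop-proximal peaks in both lists over input, 11 in V5 and 13 in FLAG. The midpoints of 23 peaks also lay in an exon of another protein-coding gene, and 125 peaks lay in another exon than the stop codon.

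The stop-proximal part held more peaks than the distal part, which by construction has the same length in the canonical transcript. Whether both parts were equally present in the RNA of these cells was not tested. Of the 3′ UTR peaks, 61.4% (95% Wilson interval 59.4% to 63.3%, 1437 of 2342) were stop-proximal in V5 over input and 61.0% (59.0% to 62.9%, 1485 of 2435) in FLAG over input. Over empty vector the shares were 59.2% (55.7% to 62.6%) in V5 and 56.6% (53.3% to 59.9%) in FLAG. The intervals cover counting error only, and peaks of a gene are not independent. Counted by gene, 740 genes had more stop-proximal than distal peaks and 395 had fewer in V5 over input, and in FLAG over empty vector 301 genes had more and 209 fewer. The excess by gene was small among the sites present in all 4 lists, described below. There 110 genes had more stop-proximal sites and 92 had fewer, and the stop-proximal share of sites was 57.6% (52.2% to 62.9%).

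Peaks were spread almost evenly over the stop-proximal part in the lists over input and became fewer toward the 3′ end. When each 3′ UTR was divided into 10 equal parts, parts 1 to 5 of V5 over input each held between 11.7% and 13.2% of the 3′ UTR peaks, parts 7 to 9 held between 8.28% and 8.50%, and part 10 held 3.20%. FLAG over input followed the same course, with 11.6% in part 1 and 2.75% in part 10. FLAG over empty vector differed at the start, with 7.73% in part 1 and its highest share, 13.8%, in part 5. Among the sites present in all 4 lists the highest share, 14.3%, was that of part 6, which is distal. Peaks that overlapped the stop codon were left out by the rule and lower the count of part 1.

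**Figure D1:**
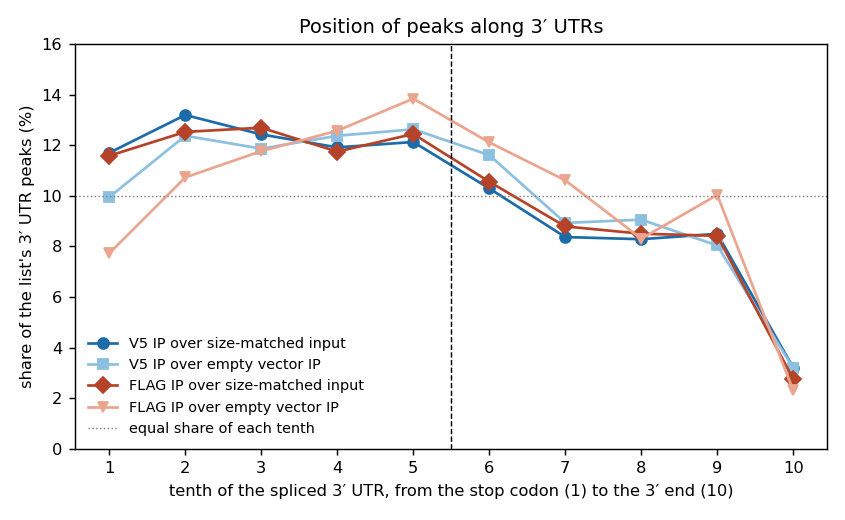
Share of the 3′ UTR peaks of each list (vertical axis, %) in 10 equal parts of the spliced 3′ UTR from the stop codon to the 3′ end (horizontal axis), with 1 line per list, a dotted line at an equal share and a dashed line between the stop-proximal and the distal part. In all 4 lists the last part held the fewest peaks, between 2.31% and 3.20%.

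The stop-proximal part held more peaks than the distal part over most 3′ UTR lengths, but the intervals of some length classes included an equal share. In V5 over input the stop-proximal share was 58.7% (48.5% to 68.2%, 92 peaks) for 3′ UTRs under 500 nt and 65.1% (60.7% to 69.2%, 478 peaks) for those of 4000 nt or more. In FLAG over input the corresponding shares were 61.5% and 65.7%. V5 over empty vector had 56.0% (37.1% to 73.3%) and 55.2% (47.0% to 63.0%), without a higher share in the long 3′ UTRs. A share below that of the distal part was found in FLAG over empty vector alone, where 3′ UTRs under 500 nt had 13 of 30 peaks in the stop-proximal part (43.3%, 27.4% to 60.8%). Genes with a stop-proximal peak had long 3′ UTRs, with a median between 2248 and 2604 nt in the 4 lists against 1064 nt over all 19228 canonical transcripts with a 3′ UTR. A longer 3′ UTR offers more bases in which a peak can be found, and this was not taken into account.

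The median stop-proximal peak lay 477 nt after the stop codon in V5 over input, 516 nt in FLAG over input, 506 nt in V5 over empty vector and 636 nt in FLAG over empty vector. Per 10 kb of stop-proximal sequence in genes with such a peak, V5 over input had 20.4 peaks between 51 and 100 nt, 23.3 between 101 and 200 nt, 13.4 between 401 and 800 nt and 4.01 beyond 1600 nt. FLAG over input had 18.2, 22.9, 14.0 and 4.34 peaks at these distances. The decline with distance is partly built in, because each gene counted has at least 1 peak and short 3′ UTRs reach the near distances alone. Enrichment did not follow distance, with a Spearman's rho between −0.05 and 0.06 in the 4 lists (464 to 1485 peaks, many of which share a gene).

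The median log2 enrichment of stop-proximal peaks was close to that of other mRNA regions. In V5 over input it was 3.63 (quartiles 3.30 and 4.07), against 3.72 for distal peaks, 3.56 for CDS peaks and 3.61 for all peaks. In FLAG over input it was 3.64 (3.29 and 4.13), against 3.76, 3.55 and 3.63. The stop-proximal medians over empty vector were 3.59 in V5 and 3.62 in FLAG. A log2 enrichment of 5 or more was reached by 59 stop-proximal peaks in V5 and 83 in FLAG over input, and by 17 and 24 over empty vector.

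The highest stop-proximal values belonged to histone genes. MACROH2A2, which encodes a macroH2A histone variant, reached 7.60 in V5 over input and 6.72 in V5 over empty vector. In FLAG the highest values were those of H2AC11, a replication-dependent H2A histone gene named after its values were seen, with 7.56 over input and 7.50 over empty vector. H2AC11 also held the highest FLAG value of the distal part, 7.67 over input and 6.95 over empty vector. Among CDS peaks it was the highest in FLAG too, with 6.92 and 7.93, so its high values were not particular to the stop-proximal part. The 3′ UTR of H2AC11 has 71 nt, and its 3 stop-proximal FLAG peaks covered 31 nt from the first 5 bases on. V5 had no stop-proximal peak in H2AC11, because its peak there, with 6.73 over input, overlapped the stop codon. Reads of H2AC11 can come from other histone genes of near-identical sequence, and their origin cannot be told apart here.

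Stop-proximal peaks were found by both controls less often than the average peak in V5, and in FLAG their share was near that of all peaks. In V5, 427 of the 1437 peaks over input overlapped a peak over empty vector (29.7%, 27.4% to 32.1%), against 36% of all peaks, 34.3% of distal peaks and 40.0% of CDS peaks. In FLAG, 446 of 1485 did (30.03%, 27.8% to 32.4%), against 27.9% of all peaks, 36.6% of distal peaks and 26.3% of CDS peaks. The stop-proximal share was thus similar in both antibodies, and the CDS share was not. Conversely, 410 of the 464 V5 peaks over empty vector (88.4%) and 433 of the 491 FLAG ones (88.2%) were also found over input, against 76.6% and 90.5% of all peaks and 93.4% and 92.3% of distal peaks.

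Between the antibodies, which share no library, 826 of the 1437 V5 peaks over input overlapped a FLAG peak over input (57.5%, 54.9% to 60.0%), against 54% of all V5 peaks and 59.3% of distal ones. Of the FLAG peaks over input 56.7% overlapped a V5 peak, against 55.8% of all and 58.1% of distal ones. Over empty vector 46.3% (41.8% to 50.9%) of the stop-proximal V5 peaks overlapped a FLAG peak, against 30.6% of all V5 peaks, 54.1% (48.6% to 59.4%) of distal ones and 24.1% of those in the CDS. Of the FLAG peaks over empty vector 46.0% overlapped a V5 peak, against 50.4% of all and 52.1% of distal ones. A high share over empty vector in V5 was therefore found in both parts of the 3′ UTR. Peaks found by the other antibody were the stronger ones, with a median log2 enrichment over input of 3.82 in V5 against 3.43 for the rest.

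The 3877 peaks merged into 1931 separate loci. Of these, 1077 (55.8%) were seen in 1 list, 474 in 2, 235 in 3 and 145 (7.51%) in all 4. Only stop-proximal peaks were counted for this, so a locus can also overlap a distal or stop codon peak of another list. Loci of V5 over input alone (510) and of FLAG over input alone (501) were about equally common, and 287 were seen in both of these lists and in no other. Loci of V5 over empty vector alone (31) and of FLAG over empty vector alone (35) were rare. The median length of a locus was 80 nt when it was seen in 1 list and 139 nt when it was seen in 4. This difference is partly built in, because a locus joins the touching peaks of all lists.

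To follow sites present in every comparison, the 4 lists were intersected with at least 50% overlap at each step. Of the 749 intervals that remained, 189 (25.2%) were stop-proximal, in 122 genes, 139 were distal and 344 lay in the CDS. The study reports a smaller number of reproducible peaks from its own intersection, and the reason for the difference was not tested. Some intervals touch each other, and the stop-proximal ones numbered 169 when touching ones were merged. Of the 1437 stop-proximal V5 peaks over input 13.2% gave rise to an interval, against 11.3% of all peaks of that list, 15.2% of distal peaks and 10.5% of CDS peaks. The stop-proximal intervals had a median length of 69 nt and a median position 512 nt after the stop codon. Most of the 122 genes, 93, had no interval in the distal part or the CDS, 17 also had a distal interval and 15 a CDS interval.

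The 15 genes with the highest mean of V5 and FLAG over input held sites with different profiles over the 4 lists. The values given for them are the highest among the peaks behind their intervals, and a gene can have higher peaks outside the intervals. MACROH2A2 had 3 intervals between 92 and 148 nt after the stop codon, and its log2 enrichment over input was 7.60 in V5 and 5.77 in FLAG, over empty vector 6.72 in V5 and 3.76 in FLAG. It was therefore high with V5 and much lower with FLAG over empty vector. ATF3, a stress-induced transcription factor, was high in all 4 lists, with 6.06 and 6.37 over input and 6.67 and 7.26 over empty vector in V5 and FLAG. POLG, the catalytic subunit of the mitochondrial DNA polymerase, had the narrowest range of these 3 genes, from 5.58 to 6.06, with 2 intervals at 33 and 62 nt. POLG also had a peak over its stop codon in each of the 4 lists.

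ZNF496, a zinc finger protein, had 6.96 in V5 and 5.74 in FLAG over input and 4.90 and 5.36 over empty vector, at 1173 nt. SUV39H1, a histone H3 lysine methyltransferase, had values from 4.85 to 5.34 in the 4 lists. RMND5A, a subunit of the CTLH ubiquitin ligase, had 6.08 and 5.62 over input and 4.42 and 4.77 over empty vector in a single interval 1628 nt after the stop codon, the most remote of these 15 genes. PXN, which encodes the focal adhesion adaptor paxillin, and ACTR1A, a dynactin subunit, had means over input of 5.63 each. ACTR1A was at 3.16 in V5 over empty vector, close to the threshold of the lists, and at 5.33 in FLAG over empty vector.

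HDLBP, which encodes the RNA-binding protein vigilin, had 3 intervals between 1000 and 1092 nt, with 5.98 in V5 and 5.40 in FLAG over input. The same intervals reached 4.48 and 4.28 over empty vector. UNC119B, a carrier of lipidated proteins to cilia, reached 5.46 and 5.60 over input in its intervals, and had a V5 peak over input of 5.85 outside them. MFHAS1 (6.55 in V5, 5.47 in FLAG), HACD3, an enzyme of fatty acid elongation (5.88 and 4.64), FGF11 (5.24 and 5.27) and FLYWCH1 (4.62 and 5.79) had a single stop-proximal interval each.

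**Figure D2:**
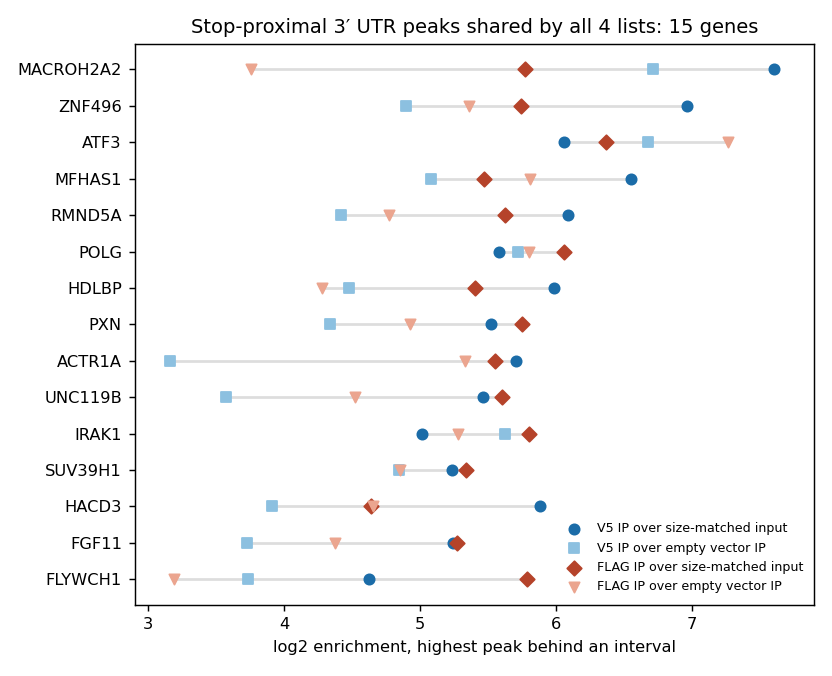
Highest log2 enrichment (horizontal axis) among the peaks behind the stop-proximal intervals of the 15 genes with the highest mean over input, with 1 symbol for each of the 4 lists and a line over their range. MACROH2A2 spread from 3.76 to 7.60, whereas POLG stayed between 5.58 and 6.06.

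ATF3 held the most stop-proximal intervals, 8, followed by RHOA with 7, AEN with 6, and IRAK1 and USP22 with 5 each. In ATF3, whose 3′ UTR has 1220 nt, the stop-proximal peaks formed an almost unbroken stretch. Their midpoints ran from 85 to 428 nt in V5 and from 109 to 500 nt in FLAG over input. The strongest V5 peak over input had its midpoint at 154 nt and the strongest FLAG peak at 220 nt, and over empty vector the strongest peaks were at 182 nt in V5 and 177 nt in FLAG. Of the 8 intervals of ATF3, 1 carried the motif, at 180 nt after the stop codon.

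RHOA, a small GTPase that organizes actin, had no peak outside its stop-proximal part in any list. Its peaks lay between 355 and 504 nt in V5 and between 362 and 493 nt in FLAG, with highest values of 5.43 in V5 and 4.91 in FLAG over input and 4.65 and 4.23 over empty vector. The strongest site was at 398 nt in V5 over input and at 420 nt in the other 3 lists. IRAK1, a kinase of interleukin-1 and Toll-like receptor signalling, had its strongest sites at 346 or 347 nt in 3 lists and at 381 nt in V5 over input. In ATF3, IRAK1 and AEN peaks were also listed in the distal part and the CDS in all 4 lists, in contrast to RHOA. The distal peaks of ATF3 reached 5.58 in FLAG over input.

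AEN and USP22 had many weaker peaks spread over the stop-proximal part. In AEN the medians over its peaks were 3.90 in V5 and 4.18 in FLAG over input, and the highest peaks had 4.40 and 5.64. USP22, the deubiquitinase of the SAGA complex, had 10 peaks in each list over input, with medians of 3.78 and 3.92. USP22 had 9 peaks over empty vector in V5 and 7 in FLAG, with medians of 3.19 and 3.35, close to the threshold.

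**Figure D3:**
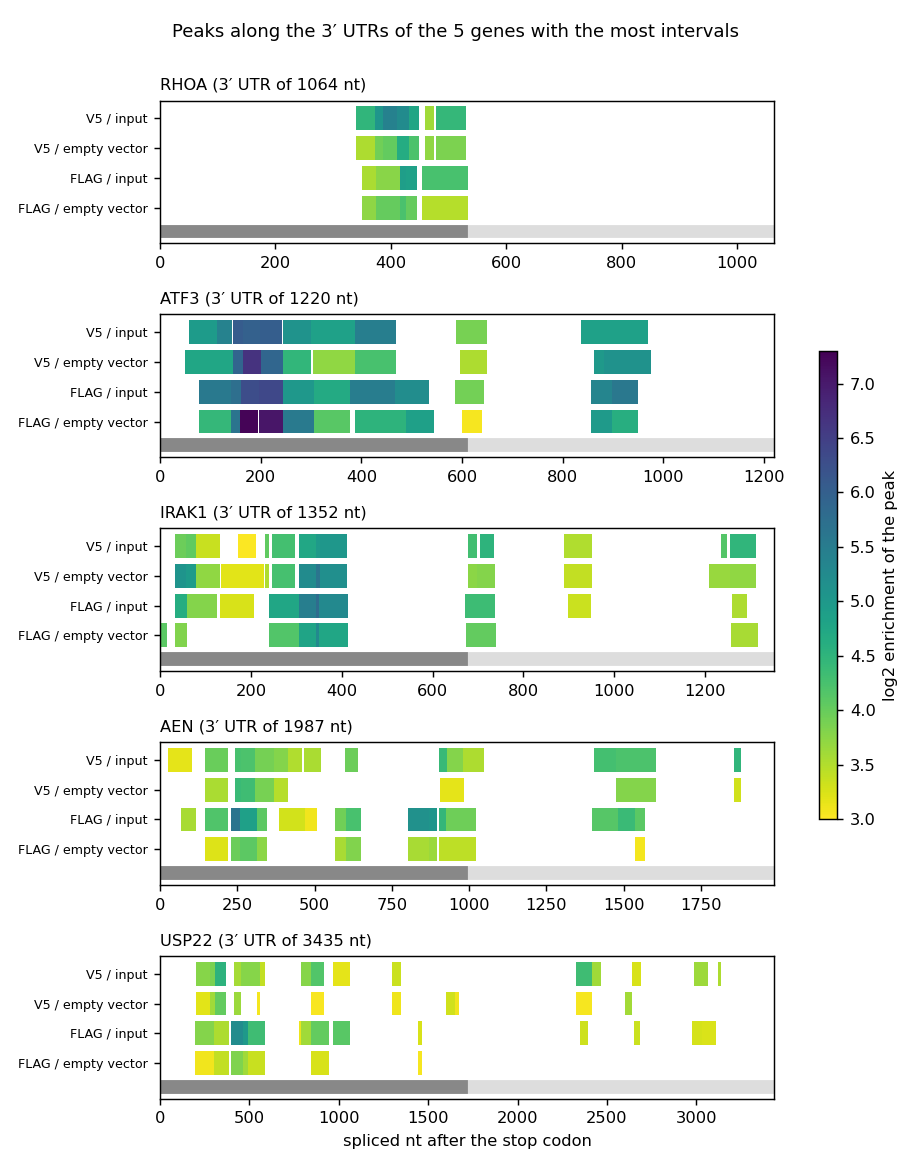
Peaks of the 4 lists (rows, the control given after the slash) along the 3′ UTRs of RHOA, ATF3, IRAK1, AEN and USP22, in spliced nt after the stop codon, coloured by log2 enrichment; the bar under each gene shows the stop-proximal part in dark and the distal part in light grey. The peaks of RHOA lay in a single stretch between 355 and 504 nt by their midpoints, whereas those of USP22 were scattered.

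CDKN1A, the cyclin-dependent kinase inhibitor p21, had 1 stop-proximal interval, at 536 nt, with 4.17 in V5 and 3.91 in FLAG over input and 4.90 and 4.31 over empty vector. Its distal part held more peaks than its stop-proximal part in each list, with 4 against 2 in V5 and 7 against 5 in FLAG over input. CDIP1, the gene the study names as its strongest target, and the reference genes ACTB and GAPDH had no stop-proximal peak in any list.

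V5 and FLAG values were moderately related across genes. Over the 583 genes with a stop-proximal peak in both lists over input, Pearson's r of the highest values was 0.515 and Spearman's rho 0.445, and V5 was higher in 301 genes. The SD of the difference between V5 and FLAG was 0.66, and 72 genes differed by more than 1 on the log2 scale. Over empty vector r was 0.512 (158 genes), and over the 122 genes with an interval r was 0.590 over input. The highest V5 and FLAG peaks of a gene need not lie at the same site. The points are genes of the same lists, not replicates, and values under the threshold of the lists are missing.

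Among the 122 genes with an interval, the largest differences between V5 and FLAG in the peaks behind the intervals went in both directions. V5 exceeded FLAG over input by 1.83 in MACROH2A2, by 1.72 in AHCY, which hydrolyses S-adenosylhomocysteine, and by 1.28 in HERPUD1, a protein of the endoplasmic reticulum stress response. FLAG exceeded V5 in WASF3, an actin regulator (3.98 in V5 and 5.53 in FLAG), in IP6K1, an inositol phosphate kinase (3.59 and 4.89), and in AEN (4.40 and 5.64). The IP6K1 values belong to its single interval, and its highest V5 peak over input, elsewhere in the stop-proximal part, had 4.51. In AHCY 1 FLAG peak of 216 nt over input, with 3.44, lay behind all 3 intervals, whereas V5 had 4 narrower peaks from 3.80 to 5.16. The AHCY difference thus sets the highest of several V5 peaks against 1 broad FLAG peak. AHCY had 4.36 in V5 and 3.38 in FLAG over empty vector, the same order as over input. WASF3 had 3.75 and 4.55, again the same order. These pairs share the IP libraries, so that the second control is no independent repeat.

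**Figure D4:**
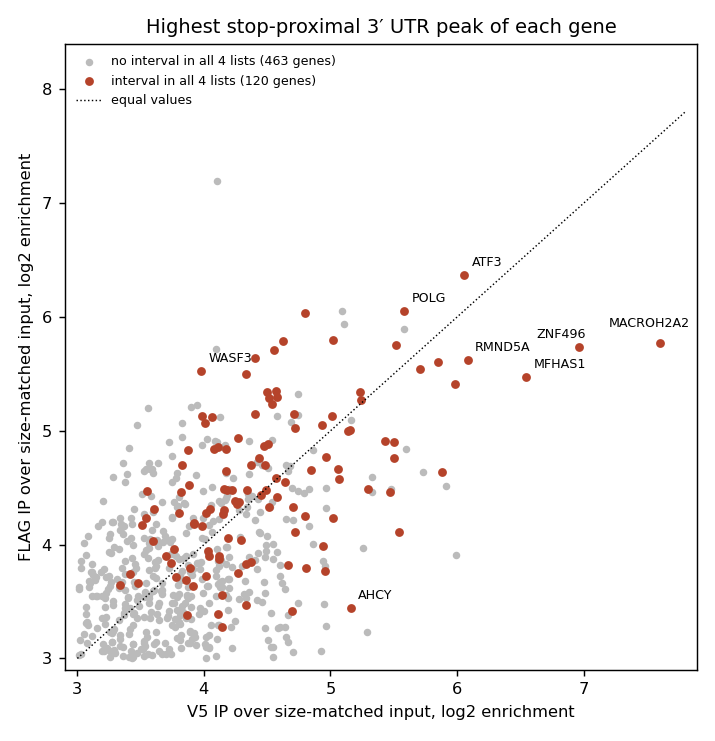
Highest stop-proximal log2 enrichment over input in V5 (horizontal axis) and FLAG (vertical axis) for the 583 genes with a value in both lists, with the genes that hold an interval of all 4 lists in red. The points scatter around the line of equal values with Pearson's r of 0.515, and MACROH2A2 and ZNF496 lie far to the V5 side.

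Outside the intersection, EVI5L, named after its values were seen, had a site with 7.20 over input and 5.85 over empty vector in FLAG. V5 had 4.24 over empty vector and no peak over input at this site, and its peak over input in EVI5L, with 4.11, lay at another. CNBP, a zinc finger protein that binds nucleic acids, had 5.99 in V5 and 3.91 in FLAG over input at a single site, a larger difference than that of MACROH2A2. It was chosen in the same way. CTC1, a telomere maintenance protein also chosen so, had 5.58 in V5 and 5.90 in FLAG over input and no stop-proximal peak over empty vector. A high value over input in both antibodies was thus not always accompanied by a peak over the empty vector.

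The peaks lay in GC-rich stretches of their 3′ UTRs. The median GC content of a 75 nt window around the midpoint was 58.7% in V5 and 57.3% in FLAG over input, 57.3% and 54.7% over empty vector, and 48.0% in 23194 windows of the same length tiled over the stop-proximal parts of all genes with such a peak. Windows under 40% GC made up 3.27% of the V5 peaks over input and 27.4% of the tiled windows, and windows from 60% to under 70% GC made up 39.9% and 17.3%. Distal peaks had the same median GC content as stop-proximal peaks in V5 (58.7%) and FLAG (57.3%) over input. Within the peaks, enrichment did not rise with GC content, with medians of 3.83 under 40% GC and 3.59 from 60% to under 70% GC in V5 over input. GC content can also affect mapping, amplification and peak calling, and their part was not tested.

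**Figure D5:**
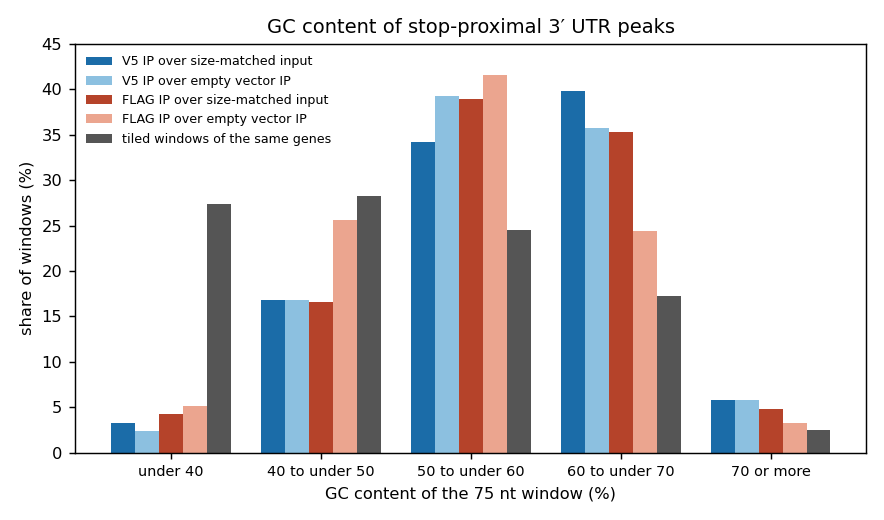
Share of windows (vertical axis, %) by GC content of the 75 nt window (horizontal axis, %) for the stop-proximal peaks of the 4 lists and for windows tiled over the stop-proximal parts of the same genes. Peaks were fewer than tiled windows under 40% GC (2.37% to 5.09% against 27.4%) and more from 50% to under 70% GC.

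Short AU-rich and U-rich elements were scarce in the peaks. The AU-rich pentamer ATTTA, the core of many destabilizing elements, was found on the mRNA strand in 2.16% of the V5 and 2.76% of the FLAG windows over input and in 8.95% of the tiled windows. The poly(A) signal AATAAA was found in 0.557%, 0.539% and 3.02%, and TTTTT in 5.57%, 5.05% and 17.9%. The Pumilio motif TGTANATA was found in 0.348% and 0.337% of the V5 and FLAG windows and in 1.03% of the tiled windows. GGAC was found in 25.1%, 24.7% and 20.1%, and the dinucleotide GT in 99.8%, 99.8% and 98.1%, with a mean of 5.44, 5.24 and 4.25 GT per window. The first 3 of these elements are made up mostly or wholly of A and T, so that their shares and the GC content are not separate measures.

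The GU-loop:5nt-stem was called in 68 of the 189 stop-proximal intervals (36.0%, 29.5% to 43.0%), against 36.6% of all 749 intervals. The share was 54.0% (45.7% to 62.0%) in the 139 distal and 27.3% (22.9% to 32.3%) in the 344 CDS intervals. At least 1 motif was called in 66 of the 122 genes. The share followed the length of the interval, at 13.3% of 60 intervals under 50 nt, 40.0% of 90 intervals from 50 to 99 nt and 61.5% of 39 longer ones. In windows of a fixed 75 nt the share was 41.8% (35.0% to 48.9%) for stop-proximal, 56.1% for distal and 46.2% for CDS intervals.

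Beside the intervals, the motif was called in 29.2% (27.4% to 31.1%) of 2376 windows of 75 nt tiled over the stop-proximal parts of the 122 genes, and in 27.3% of the 1768 of these without a peak. Windows around all stop-proximal peaks over input had it in 48.9% (46.3% to 51.4%) of 1437 in V5 and 45.3% (42.8% to 47.9%) of 1485 in FLAG, and windows around distal peaks in 50.2% and 50.4%. These peaks come from all genes and not from the 122 alone. In each of 5 classes of GC content the peaks of both antibodies had a higher share than the tiled windows. From 50% to under 60% GC the shares were 52.7% in V5, 45.4% in FLAG and 34.0% (30.4% to 37.7%) in the tiled windows, and from 60% to under 70% GC they were 47.5%, 45.8% and 33.1%.

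Intervals with the motif were not more enriched than those without. Their median log2 enrichment over input was 4.20 with and 4.37 without the motif in V5, and 4.25 and 4.49 in FLAG. The medians over empty vector were 3.92 and 4.00 in V5, and 3.80 and 3.82 in FLAG. Intervals of a gene are not independent, and neighbouring ones can take their value from the same peak. Short intervals also had the motif less often, and neither point was taken into account in these medians. The highest FLAG value over input in ATF3 lay in an interval without the motif, at 221 nt, next to the interval that carries it.

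Gene groups differed in how often they had a stop-proximal peak. Over all 19205 protein-coding genes with a 3′ UTR, 6.73% had one in at least 1 list, 3.04% in both lists over input and 0.635% in the intersection. Of 33 genes of the stress and DNA damage response, 15 (45.5%) had one in at least 1 list, 11 (33.3%) in both lists over input and 6 (18.2%) in the intersection. The 6 are ATF3, AEN and CDKN1A, described above, and, beyond the rule for named genes, the stress-induced sestrins SESN1 and SESN2 and the death receptor TNFRSF10B. SESN2 had 3.84 in V5 and 4.03 in FLAG over input and SESN1 3.95 and 3.72. Some genes of this group are known from the study of these same libraries, so that its count is not independent evidence.

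Small GTPase and vesicle trafficking genes had a stop-proximal peak in 28 of 182 (15.4%) in at least 1 list, 15 (8.24%) in both lists over input and 2 in the intersection. The 2 are RHOA and VPS26B, a retromer subunit with 4.18 in V5 and 4.48 in FLAG. Of 45 cyclin and cell cycle genes 13 (28.9%) had one in at least 1 list and 4 (8.89%) in both lists over input. CDT1, which licenses replication origins, was the single cell cycle gene in the intersection, with 3 intervals and values of 4.51 and 4.33. Of 73 heat shock and chaperone genes 6 (8.22%) had a peak in at least 1 list, near the share over all genes, and DNAJB1, a partner of HSP70, was in the intersection with 4.14 and 3.56.

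Of 80 cytoplasmic ribosomal protein genes, whose median 3′ UTR has 147 nt, 5 (6.25%) had a stop-proximal peak in at least 1 list, near the share over all genes, and 1, RPS28, in the intersection. RPS28 has a 3′ UTR of 1085 nt in the canonical transcript and had its 2 intervals at 15 and 35 nt, with 3.55 in V5 and 4.24 in FLAG. Of 69 replication-dependent histone genes, with a median 3′ UTR of 57 nt, 1 had a stop-proximal peak, H2AC11. ZNF zinc finger genes, whose median 3′ UTR is longer (1669 nt), had one in 11 of 509 (2.16%), below the share over all genes. ZNF496 and ZNF445 were the 2 of them in the intersection, and ZNF445 had its 3 intervals between 3531 and 3580 nt of a 3′ UTR of 14870 nt.

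Solute carriers had a stop-proximal peak in at least 1 list in 34 of 371 (9.16%), ubiquitin system genes in 29 of 320 (9.06%), translation factors in 7 of 71 (9.86%) and protein phosphatase genes in 5 of 90 (5.56%). In the intersection these held SLC25A25, a mitochondrial carrier of adenine nucleotides (4.72 in V5 and 5.03 in FLAG), USP22, no translation factor, and PPP1R8, a nuclear inhibitor of protein phosphatase 1 (4.64 and 4.55). Among genes of mRNAs with well-known elements in the 3′ UTR, 3 of 25 selenoprotein genes (12%), whose mRNAs carry a SECIS element, 4 of 29 immediate-early and AU-rich element genes (13.8%) and 3 of 4 genes with an iron-responsive element had a stop-proximal peak in at least 1 list. None of these genes was in the intersection, and at the share of 0.635% over all genes, groups of these sizes would hold fewer than 1 such gene each.

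Genes with a stop-proximal peak often had peaks elsewhere in the same mRNA. In V5 over input 27.6% of the 913 genes also had a distal peak, 35.7% a CDS peak and 11.4% a 5′ UTR peak, and 43.9% had no peak in another region of the mRNA. In FLAG over empty vector 18.6% of 344 genes also had a distal peak, 15.7% a CDS peak and 2.33% a 5′ UTR peak, and 68.9% had none elsewhere.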

How the data were processed

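eCLIP libraries of V5- or 3xFLAG-tagged dSpCas9, size-matched inputs and empty vector IPs from HEK 293T cells were processed by the authors with their eCLIP pipeline (version 0.4.0). The submitters' processing notes name UMI-tools 1.0.0, cutadapt 1.14, STAR 2.4.0i, SAMtools 1.6 and the build GRCh38. The 2 replicates of a comparison were merged by the authors with the Irreproducible Discovery Rate. They deposited for each peak a log2 value, the geometric mean ratio of IP to control reads, and a −log10 p-value, which was not used as a test here and has a ceiling of 400. How reads were scaled for depth is not given in the sources used here.

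Peaks were placed on GENCODE release 44 canonical transcripts (hg38) by their midpoints. Overlap meant at least 1 nt on the same strand. The intersection kept the covered part of the first interval at 50% overlap, V5 lists first. The GU-loop:5nt-stem was called with ViennaRNA 2.7.2 (window and span 70) with 50 nt flanks, when the pairing probability was under 0.7 for U and over 0.5 for each of the next 5 bases. Tiled windows were 75 nt of spliced sequence and did not overlap. Shares have 95% Wilson intervals, which cover counting error alone. The code, in Python 3.11.15 with numpy 2.4.6 and scipy 1.17.1, was tested on simulated data.

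The named genes are those the study names as targets or controls, the 15 highest by the mean over V5 and FLAG in the intersection, the 5 with the most intervals, the 3 with the largest difference in each direction, and up to 3 of each gene list. Values of 1 gene chosen in this way are left out. The members and gene lists were chosen with earlier results of these data known, and the texts of the series shaped the list of stress genes. Alternatives covered the enrichment threshold, the placement, merging, overlap and motif settings, and no sample was left out. Expression, editing and genomic data were not analysed here.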

Additional observations from a re-analysis of the deposited data

How the results depend on the processing

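No paired analysis was possible because the lists hold 1 value per peak over both replicates, and for the same reason no replicate could be left out. Of 42 values under an alternative setting, for 13 results, 36 stayed within the interval of the reported value, or within 1.5 times the count, and 6 did not. With a log2 enrichment of at least 4, the stop-proximal share of the 3′ UTR peaks over size-matched input fell to 57.4% in V5 and 55.8% in FLAG, the share of peaks also found over empty vector IP fell to 24.4% in V5 and 24.9% in FLAG, and the stop-proximal intervals numbered 43 instead of 189, as fewer peaks entered. With touching peaks merged, the share of V5 peaks also found over empty vector IP was 26.7%. A minimum overlap of 1 nt gave 283 intervals, and the cause of the other differences was not tested. Medians of log2 enrichment kept within their intervals whether whole peaks, merged peaks or 3′ UTRs of at least 200 nt were used, and so did the motif share (30.2% with stem pairing over 0.6) and the correlation of V5 and FLAG (0.486 with means over peaks). The lists have no read counts, so that depth limits cannot be stated, and sites under a log2 of 3.00 are absent from them.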
